A study of Chlamydomonas reinhardtii with 8 samples.

Results

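Chlamydomonas reinhardtii is a green alga that lives as single cells. Its messenger RNA was compared, in strain CC-4532, between cultures 12 h after zinc had been returned and the zinc-deficient cultures at 0 h. The cultures at 12 h had received ZnCl2 to 2.5 µM, and the cultures at 0 h were sampled just before that addition. Both had been carried through a second passage in acetate medium to which no zinc was added, under continuous light, and were RNA pools of whole cultures. Further conditions were 1.5, 3, 4.5 and 24 h after zinc and 2 zinc-replete cultures, named early and late. No culture was handled in the same way without zinc, so the effect of 12 h in culture and the effect of zinc cannot be told apart. Of the 17737 genes in the deposited table, 17683 had a usable estimate at both 12 h and 0 h, and these make up the comparison. Of these, 6225 averaged under 1 FPKM over the 8 conditions and were not tested, which left 11458 genes.

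Zinc is a cofactor of carbonic anhydrases, of DNA and RNA polymerases and of many regulatory proteins, and a photosynthetic cell also needs copper and iron for its electron carriers. In this alga, transporters of the ZIP family bring zinc into the cytoplasm, and cation diffusion facilitators of the MTP family move zinc and manganese out of it. The regulator CRR1 switches on genes for copper economy, among them CYC6, whose product cytochrome c6 replaces the copper protein plastocyanin.

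The table gives 1 FPKM per gene and condition, a fragment count scaled to gene length and library size, with a lower and an upper bound. The design text states 4 biological replicates per condition, but no replicate values stand in the table. No p-value could therefore be computed, and every call below describes the deposited values. Genes counted as higher or lower at 12 h where log2((FPKM at 12 h + 1)/(FPKM at 0 h + 1)) was at least 1 in size and the bounds of both conditions did not overlap. With a pseudocount of 1 FPKM, ratios of weakly expressed genes come out too small, and fewer of them can pass. Sequencing depth is unknown, and the median gene's bounds reached 16.2% of its value to each side at 12 h and 19.5% at 0 h. The values summed to 748097 FPKM at 12 h and 720944 FPKM at 0 h.

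At 12 h, 831 of the 11458 genes tested were higher than at 0 h (7.25%) and 723 were lower (6.31%), together 13.6%. The median log2 ratio over all genes tested was 0.06, with quartiles of -0.30 and 0.41, so most transcripts lay close to their level in deficiency. Larger differences were more often decreases: 48 of the genes called lower had a log2 ratio of at least 3 in size, as had 23 of those called higher. At a log2 ratio of at least 5 in size there were 10 lower and 3 higher genes. The share of genes called higher was larger among abundant transcripts, sorted by mean FPKM over the 8 conditions. That mean includes the 12 h and 0 h values and the later conditions. A gene that rose and stayed high is thus moved to a higher class, and a gene that fell and stayed low to a lower class. The size of this effect was not tested. Of 2170 genes averaging 1 to 2 FPKM, 3.59% were called higher, whereas of 505 genes averaging 100 to 1000 FPKM, 24.0% were called higher and 6.93% lower. Above 1000 FPKM, 33 of 138 genes were called higher and 0 lower, but the median log2 ratio of this class was -0.05.

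**Figure D1:**
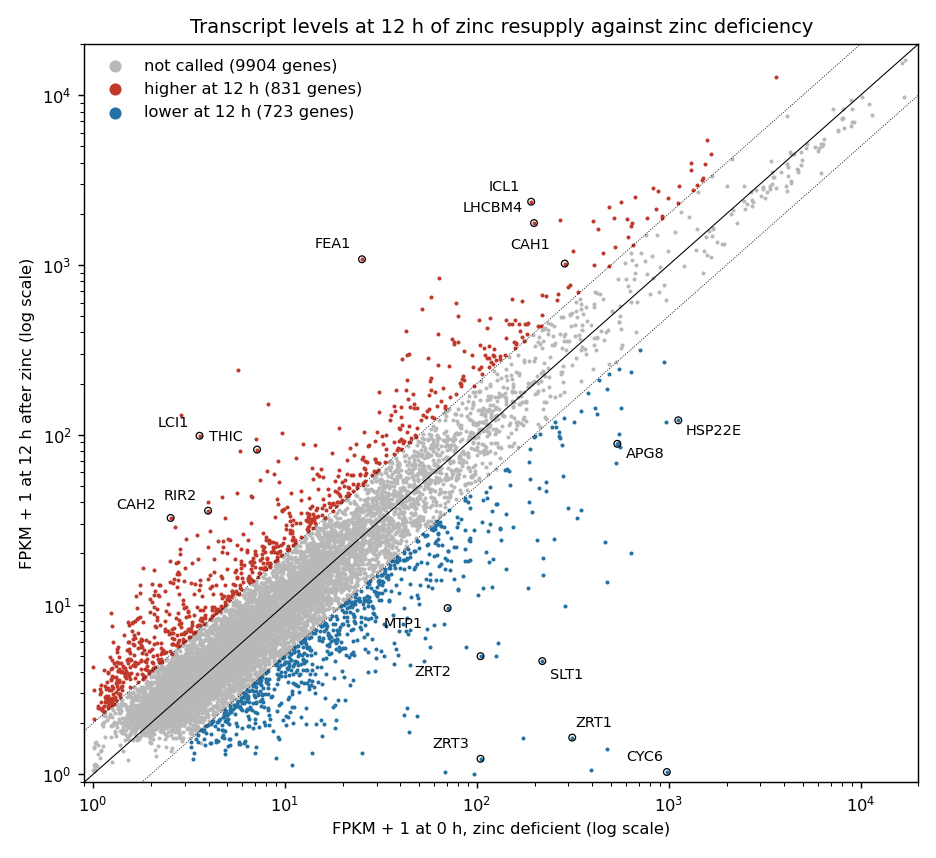
FPKM + 1 of the 11458 genes tested at 12 h after zinc (vertical axis) and at 0 h in zinc deficiency (horizontal axis), both on log scales; the solid line marks equal levels and the dotted lines a ratio of 2 either way. The 831 red genes are higher at 12 h and the 723 blue genes lower; among the labelled genes, CYC6, ZRT1 and ZRT3 lie lowest, and FEA1 lies far above the lines.

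Among genes with a symbol, the deepest decreases were in genes for zinc uptake and copper economy. CYC6 had 0.0323 FPKM (bounds 0 to 0.0971) at 12 h, against 976 FPKM (732 to 1220.4) at 0 h, a log2 ratio of -9.89 and the lowest of all genes tested. ZRT1, a ZIP transporter, had 0.646 FPKM (0.476 to 0.816) at 12 h, against 313 FPKM (233 to 393) at 0 h, a log2 ratio of -7.58. ZRT3, of the same family, had 0.235 FPKM (0.102 to 0.367) at 12 h, against 103 FPKM (81.9 to 125) at 0 h, a log2 ratio of -6.40. The bounds at 12 h and 0 h were far apart for each of these genes, and none of them reached 1 FPKM at 12 h.

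Of 12 tested genes named as ZIP transporters, 4 fell and 0 rose, with a median log2 ratio of -0.16. Besides ZRT1 and ZRT3, the fallers were ZRT2, at 3.97 FPKM at 12 h against 104 FPKM at 0 h, and ZRT5, at 6.08 FPKM at 12 h against 44.1 FPKM at 0 h. The log2 ratio was -4.40 for ZRT2 and -2.67 for ZRT5. The remaining 8 tested members had log2 ratios between -0.40 and 0.90 and did not pass the call, so the family did not move as a block. Among those 8, ZRT4 was the most abundant, at 26.0 FPKM at 12 h against 23.8 FPKM at 0 h. IRT1 averaged under 1 FPKM over the 8 conditions and was not tested; it had 0.859 FPKM at 12 h against 3.56 FPKM at 0 h.

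Among the cation diffusion facilitators, 1 of 4 tested genes fell. MTP1, a zinc transporter of this family, had 8.53 FPKM (7.30 to 9.77) at 12 h, against 69.4 FPKM (55.5 to 83.3) at 0 h, a log2 ratio of -2.88. MTP2, MTP3 and MTP5 were under 7 FPKM in all 8 conditions, with log2 ratios of 0.44, 0.28 and 0.15, and were not called.

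Of 16 genes chosen by symbol for copper homeostasis and copper-dependent enzymes, 6 fell and 1 rose, with a median log2 ratio of -0.23. Genes of tetrapyrrole synthesis are on this list as well. CTR2, a copper transporter, had 2.54 FPKM at 12 h against 12.9 FPKM at 0 h, a log2 ratio of -1.97. HMA1, a metal-pumping ATPase, had 4.69 FPKM at 12 h against 15.9 FPKM at 0 h, a log2 ratio of -1.57. CGL78, CTR3 and COX17 also fell, with log2 ratios of -1.36, -1.21 and -1.06; COX17 encodes a copper chaperone for cytochrome oxidase. CTP2, a copper-pumping ATPase, was the riser, at 10.4 FPKM (8.38 to 12.3) at 12 h against 4.27 FPKM (2.54 to 6.01) at 0 h.

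Other copper genes did not follow CYC6. CRR1 itself had 30.7 FPKM at 12 h and 30.2 FPKM at 0 h, a log2 ratio of 0.02. CPX1 and CRD1, enzymes of tetrapyrrole synthesis that CRR1 activates in copper deficiency, had log2 ratios of -0.21 and -0.25 and were not called. CTR1 lay just short of the call, at 6.78 FPKM at 12 h against 13.8 FPKM at 0 h, a log2 ratio of -0.92.

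**Figure D2:**
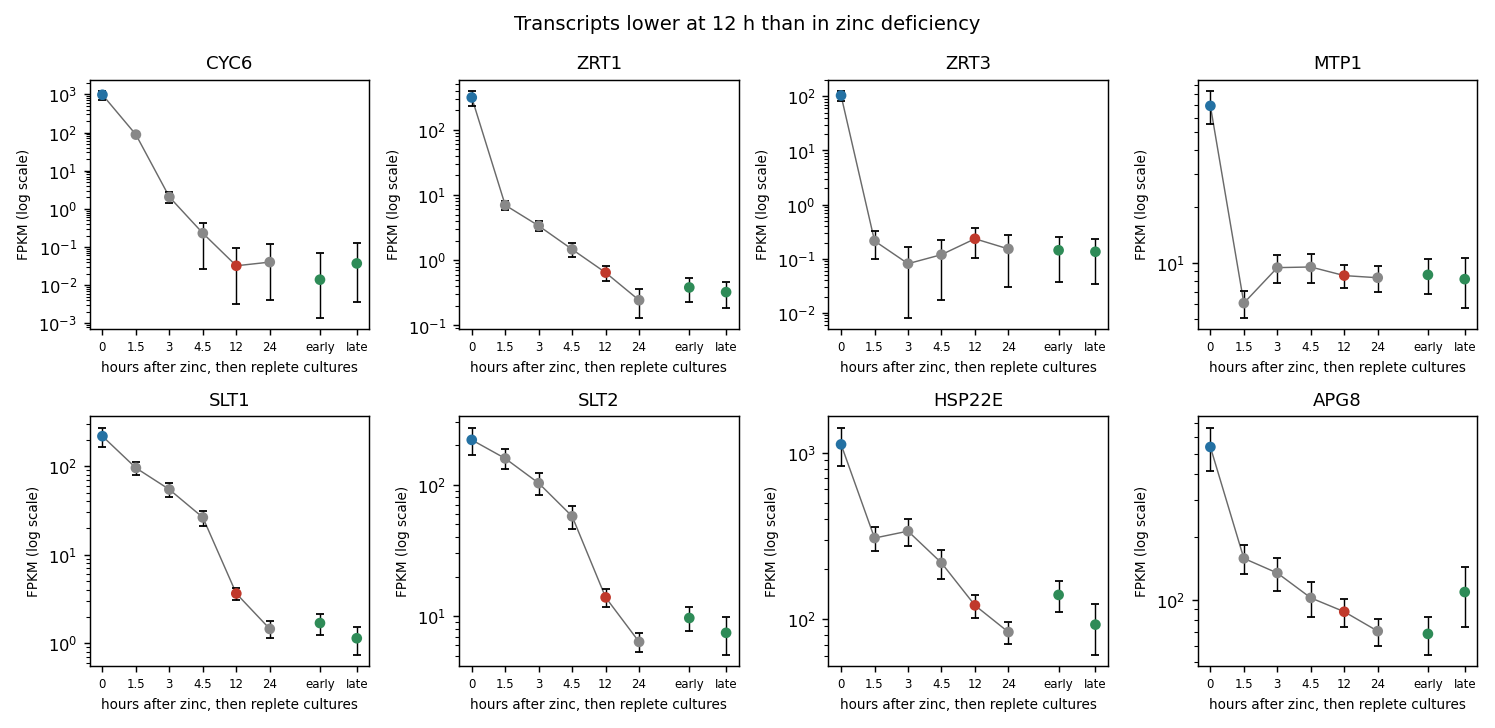
FPKM on a log scale of 8 transcripts called lower at 12 h, at 0 h (blue), at 12 h (red) and at the other times (grey), with times evenly spaced, and in the zinc-replete early and late cultures (green). Bars are the deposited bounds, shortened downwards where the lower bound is 0 or close to it; ZRT3 and MTP1 are at their low level by 1.5 h, while SLT1 and SLT2 still lie well above their 12 h level at 4.5 h.

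Sulfate transporters stood among the 12 lowest genes with a symbol as well. SLT1 had 3.64 FPKM (3.09 to 4.20) at 12 h, against 218 FPKM (165 to 272) at 0 h, a log2 ratio of -5.56. SLT2 had 13.9 FPKM (11.8 to 16.0) at 12 h, against 219 FPKM (167 to 271) at 0 h, a log2 ratio of -3.88. Both encode sulfate transporters of the plasma membrane that are known in this alga for their induction by sulfur starvation. SUL2, a further sulfate transporter that is not on the gene list, had 39.4 FPKM at 12 h against 187 FPKM at 0 h; its span overlaps that of a neighbouring gene. Of 16 tested genes of sulfate uptake and assimilation, 4 fell and 0 rose, with a median log2 ratio of -0.13. The other fallers were SAT1, a serine acetyltransferase, and ASL4, with log2 ratios of -1.78 and -1.20.

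Chaperone, autophagy and stress transcripts were also among the fallers. HSP22E, a small heat shock protein of the chloroplast, had 121 FPKM (102 to 139) at 12 h, against 1121 FPKM (831 to 1410.5) at 0 h, a log2 ratio of -3.21. Its neighbour in the family, HSP22F, had 83.9 FPKM at 12 h against 553 FPKM at 0 h, a log2 ratio of -2.71. Of 68 chaperone genes tested, 8 fell and 1 rose, and the median log2 ratio of -0.12 shows that most of the list lay near its level at 0 h. The fallers were 4 small heat shock proteins, 3 J-domain proteins (DNJ5, DNJ15 and DNJ31) and HSP70G, and the riser was DNJ13.

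Of 6 autophagy genes tested, 3 fell and 0 rose, with a median log2 ratio of -1.12. APG8, the ubiquitin-like protein that is joined to the autophagosome membrane, had 87.4 FPKM (74.0 to 101) at 12 h, against 539 FPKM (411 to 666) at 0 h, a log2 ratio of -2.61. APG3 and APG12, parts of the same conjugation systems, had log2 ratios of -1.94 and -1.39. Of 21 proteasome subunits, 0 were called either way, but most ratios were small decreases. Their median log2 ratio was -0.26, and 3 of the 21 had a ratio above 0, beside 6286 of the 11458 genes tested. At 0 h, 17 of the 21 lay above both replete cultures, and at 12 h 1 did. UBA1, a ubiquitin-activating enzyme, had 37.8 FPKM at 12 h against 125 FPKM at 0 h.

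GPX1, a glutathione peroxidase, had 17.1 FPKM at 12 h against 72.4 FPKM at 0 h, a log2 ratio of -2.02. Its list of catalases, peroxidases and glutathione genes went both ways. Of 17 tested, 2 fell and 2 rose, CAT1 and MSRA2, with a median log2 ratio of 0.17. LHCSR2 and LHCSR3, relatives of the antenna proteins that dissipate excess light energy, had 6.64 and 6.54 FPKM at 12 h, against 66.1 and 58.6 FPKM at 0 h. These 2 genes are near-identical copies, so how fragments were divided between them is uncertain. Of 7 tested photoprotective antenna relatives, 3 fell and 1 rose, ELI2, with a log2 ratio of 1.24. Of 14 tested genes of fermentation and hydrogen metabolism, 4 fell and 0 rose. HYDA1, a hydrogenase, had 60.3 FPKM at 12 h against 146 FPKM at 0 h, and ADH1, which makes ethanol, had 68.3 FPKM at 12 h against 187 FPKM at 0 h.

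Other genes among the 12 lowest with a symbol were LZY1B, RDP3, NSG13, CGL41 and GPD2. GPD2, a glycerol-3-phosphate dehydrogenase, had 10.4 FPKM (8.94 to 11.9) at 12 h, against 100.0 FPKM (78.6 to 121) at 0 h, a log2 ratio of -3.15. Its relative GPD4 fell by 1.64 and GPD1 rose by 1.03 on the log2 scale; the call of GPD1 was lost with both other scalings, a pseudocount of 5 FPKM and a ratio threshold of 4. The lowest genes without a symbol were Cre02.g118400, with 0.0659 FPKM at 12 h against 394 FPKM at 0 h, and g15199, with 0.416 FPKM at 12 h against 476 FPKM at 0 h.

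The genes of the iron list went the other way. IRT1, which was not tested and was lower at 12 h, and IRT2, which was not called, were counted with the ZIP transporters instead. All 7 tested members of the iron list rose, with a median log2 ratio of 2.41, and the untested member, the ferritin FER2, was under 0.2 FPKM in all 8 conditions. FEA1, a protein of the periplasm that assists iron uptake, had 1079 FPKM (827 to 1330.3) at 12 h, against 24.2 FPKM (19.2 to 29.2) at 0 h. Its log2 ratio of 5.42 was the highest among genes with a symbol. FEA2, its relative, had 365 FPKM (294 to 436) at 12 h, against 73.5 FPKM (58.9 to 88.0) at 0 h, a log2 ratio of 2.30. FRE1, a ferric reductase, had 6.44 FPKM at 12 h against 0.249 FPKM at 0 h. FTR1, the iron permease, had 77.5 FPKM at 12 h against 16.6 FPKM at 0 h, and the ferritin FER1 had 323 FPKM at 12 h against 108 FPKM at 0 h. The list holds both uptake and storage, since ferritin stores iron. MSD3, a manganese superoxide dismutase known to rise in iron-poor cells of this alga, had 17.6 FPKM at 12 h against 2.50 FPKM at 0 h.

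FEA2, FEA1 and TEF22 stand next to each other on chromosome 12 between positions 8666912 and 8681279 in the coordinates of the deposited table, whose genome build is not given in the sources used here. TEF22 had 87.8 FPKM at 12 h against 11.4 FPKM at 0 h, so the 3 neighbours rose together. Over all neighbouring pairs of tested genes, 10.4% of the genes next to a gene called higher were called higher as well, against 7.26% over all pairs. For genes called lower these shares were 11.8% and 6.29%.

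Most of the antenna and photosystem genes that could be tested rose. All 8 listed genes of the photosystem I antenna, LHCA2 to LHCA9, rose, with log2 ratios between 1.11 and 2.16. LHCA6 had 2177 FPKM (1691 to 2664) at 12 h, against 486 FPKM (376 to 597) at 0 h, and LHCA8, the member with the smallest ratio, had 3264 FPKM (2515 to 4012) at 12 h, against 1507 FPKM (1126 to 1888) at 0 h. LHCA3 overlaps the span of another gene. Of 6 genes of the photosystem II antenna that could be tested, 5 rose, and the other had a log2 ratio of -0.60 and was not called. LHCBM4 stood out with 1763 FPKM (1385 to 2141) at 12 h, against 198 FPKM (157 to 238) at 0 h, a log2 ratio of 3.15. LHCB4 and LHCB5, the minor antenna proteins CP29 and CP26, had log2 ratios of 1.35 and 1.62. Antenna genes of photosystem II are close copies of each other, so the split of fragments among them is uncertain. LHCBM1, LHCBM2 and LHCBM7 carried a status for too much data at 12 h and are listed at 0 there, which is a failed estimate, so no statement on them is made.

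Most genes listed by symbol as nuclear photosystem subunits rose as well. The list medians of the log2 ratio were 1.07 for photosystem I and 1.23 for photosystem II, beside 1.47 and 1.33 for their antennae. Of 8 nuclear photosystem I subunits, 6 rose, led by PSAG with 2840.5 FPKM at 12 h against 825 FPKM at 0 h. Of 10 genes on the photosystem II list, 7 rose, led by PSBP6 with 70.4 FPKM at 12 h against 20.0 FPKM at 0 h. The other risers were PSB28, PSBX, PSBP2, PSBP1, PSBO and PSBP4. The list was matched by symbol and can hold genes whose products are not subunits of the complex. PSBO and PSBP1, abundant proteins of the water-splitting side, had log2 ratios of 1.09 and 1.37. Of 12 genes of the cytochrome b6f complex, soluble electron carriers and plastid ATP synthase, 2 rose, FNR1 and PETO, and 1 fell. FNR1, the reductase that makes NADPH, had 615 FPKM at 12 h against 172 FPKM at 0 h. The faller was FDX5, a ferredoxin expressed without oxygen, at 2.17 FPKM at 12 h against 12.3 FPKM at 0 h.

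In pigment synthesis, carbon fixation and plastid ribosomal proteins, calls were increases, but most members were not called. Of 15 genes of chlorophyll and heme synthesis, 7 rose and 0 fell, among them GUN4 and the magnesium chelatase genes CHLI1, CHLI2 and CHLD. GUN4, an activator of that chelatase, had 46.7 FPKM at 12 h against 13.8 FPKM at 0 h. Of 13 genes of the Calvin cycle, 5 rose and 0 fell, with PGK1, a phosphoglycerate kinase, at 631 FPKM at 12 h against 151 FPKM at 0 h. Of 32 plastid ribosomal protein genes, 7 rose and 0 fell, and all 32 had a log2 ratio above 0, between 0.44 and 1.27. The cytosolic ribosomal protein genes differed from that pattern: of 51, 0 rose and 1 fell, with a median log2 ratio of -0.22. The faller, RPS27e2, had 13.6 FPKM at 12 h against 84.0 FPKM at 0 h, while RPS27e1, the abundant copy of the same protein, had 9766 FPKM at 12 h against 16807 FPKM at 0 h and was not called.

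**Figure D3:**
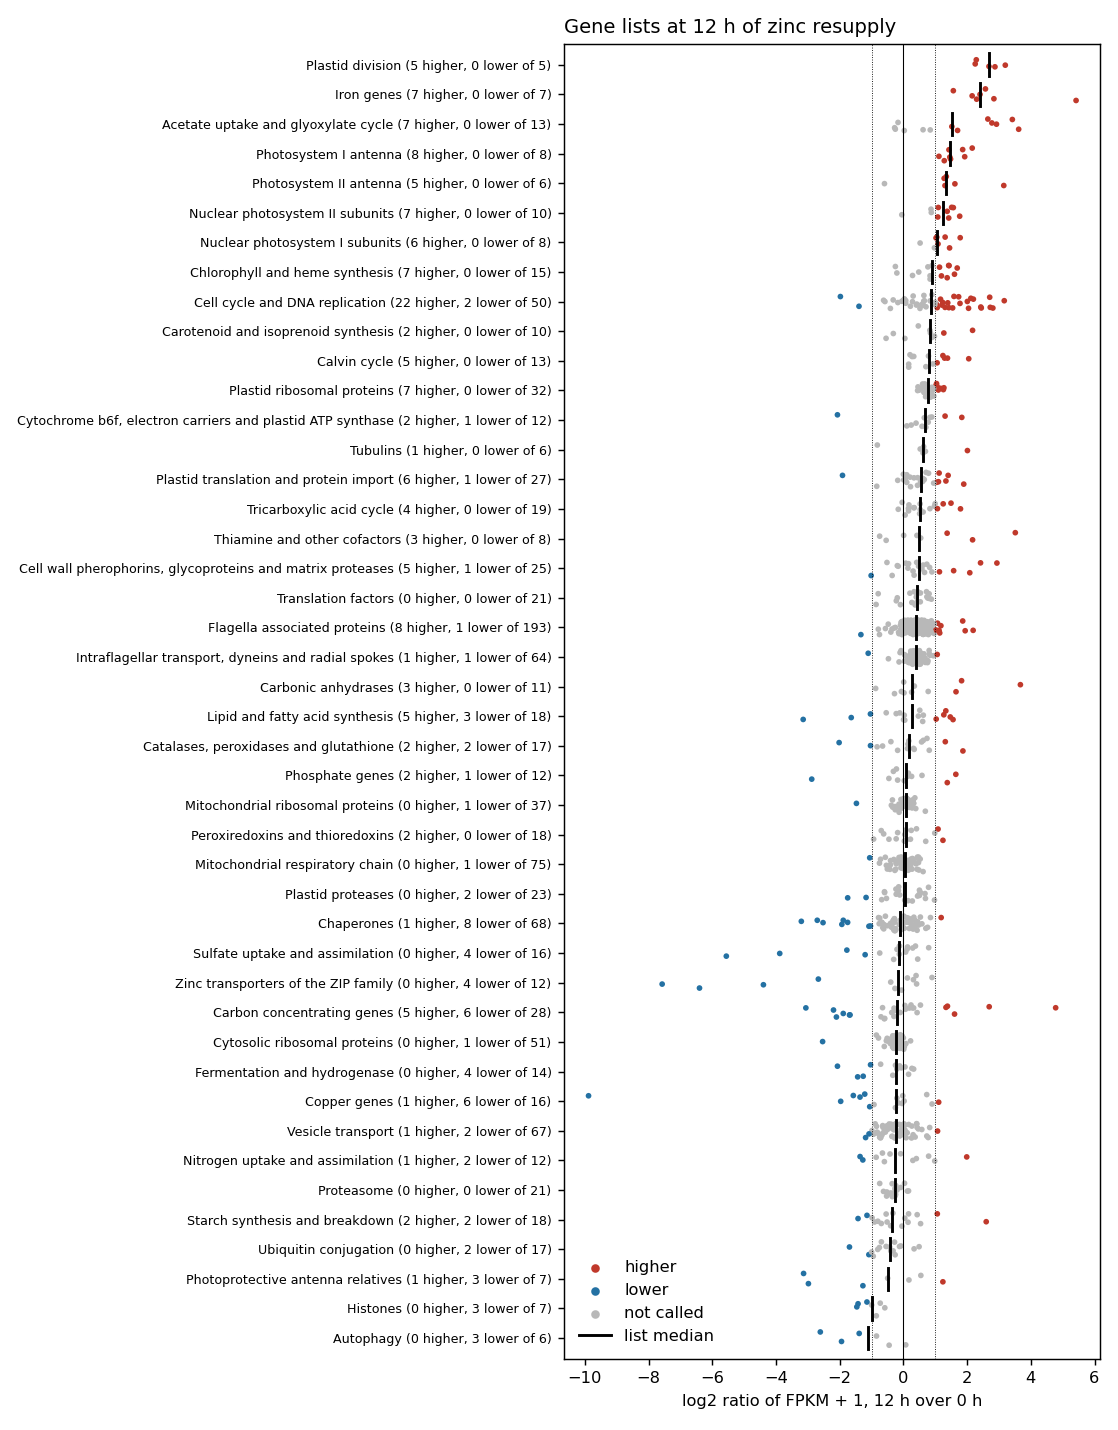
Log2 ratio of FPKM + 1 at 12 h over 0 h for each tested gene of the lists with at least 5 tested members (points, with small vertical scatter for legibility; the list of other metal transporters is left out), with the list median as a black line and dotted lines at -1 and 1. Plastid division and iron genes have the highest medians, 2.69 and 2.41, and autophagy genes the lowest, -1.12; in the ZIP, copper and sulfate lists a few genes lie far to the left while the median stays near 0.

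Several genes that let this alga live on acetate rose strongly. The growth medium contained acetate, which enters metabolism through acetyl-CoA synthetase and, for making sugars, through the glyoxylate cycle. ICL1, isocitrate lyase of that cycle, had 2355 FPKM (1774 to 2936) at 12 h, against 191 FPKM (149 to 233) at 0 h, a log2 ratio of 3.62. ACS3, an acetyl-CoA synthetase, had 552 FPKM (431 to 673) at 12 h, against 50.7 FPKM (40.2 to 61.1) at 0 h, a log2 ratio of 3.42. PCK1, CIS2 and MAS1, which encode a phosphoenolpyruvate carboxykinase, a citrate synthase and malate synthase, had log2 ratios of 2.92, 2.78 and 2.65. In total 7 of 13 genes of this list rose and 0 fell, with a median log2 ratio of 1.52. The tricarboxylic acid cycle list had 4 risers of 19, led by IDH3 with a log2 ratio of 1.79, and in the mitochondrial respiratory chain 0 of 75 genes rose and 1 fell, with a median log2 ratio of 0.06.

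Among cofactor genes, THIC, which makes the pyrimidine part of thiamine, had 80.7 FPKM (67.4 to 94.0) at 12 h, against 6.16 FPKM (5.02 to 7.30) at 0 h, a log2 ratio of 3.51. THI4, which makes the thiazole part, had 1823 FPKM at 12 h against 404 FPKM at 0 h, a log2 ratio of 2.17. BIO2, the biotin synthase, had 19.3 FPKM at 12 h against 6.84 FPKM at 0 h. The other 5 of 8 tested members of the list were not called. The list of lipid and fatty acid synthesis went both ways, with 5 of 18 tested genes higher, 3 lower and a median log2 ratio of 0.26. Its risers KAS1, KAS2, BCC1 and BCC2 rose by 1.27 to 1.56 on the log2 scale. They encode condensing enzymes and the biotin carrier proteins of acetyl-CoA carboxylase. The other riser was GPD1, and the lowest ratio, -3.15, was that of GPD2. SSS2, a starch synthase, had 85.9 FPKM at 12 h against 13.3 FPKM at 0 h, whereas SSS1 and SSS5 fell.

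Many cell cycle genes were among the risers. Of 50 tested genes for DNA replication and the cell cycle, 22 rose and 2 fell, with a median log2 ratio of 0.87. Of the risers, CDC20, CDC45, CYCAB1, CYCD2, ORC2, ORC4, RFC5, SMC2, SMC4, TOP2 and WEE1 lost the call with a pseudocount of 5 FPKM. RIR2 and RIR1, subunits of the ribonucleotide reductase that supplies DNA precursors, had 34.7 and 42.3 FPKM at 12 h, against 2.98 and 5.62 FPKM at 0 h. MCM2, part of the replicative helicase, had 9.83 FPKM (8.45 to 11.2) at 12 h, against 0.991 FPKM (0.718 to 1.26) at 0 h; MCM3, MCM4, MCM6 and MCM7 rose with log2 ratios between 1.78 and 2.20. CYCA1, CYCB1 and CDKB1, mitotic cyclins and a mitotic kinase, had log2 ratios of 2.81, 2.43 and 2.73. The fallers were ORC5, at 3.65 FPKM at 12 h against 17.3 FPKM at 0 h, and CDC48, at 40.1 FPKM at 12 h against 107 FPKM at 0 h. CDC48 encodes an ATPase that also works in protein degradation. In RNA of whole cultures, a larger share of cells in division and more of these transcripts per dividing cell cannot be told apart.

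All 5 genes of plastid division rose, with a median log2 ratio of 2.69, the highest among lists with at least 5 tested members. MIND1, which helps to place the division ring, had 42.0 FPKM (35.8 to 48.2) at 12 h, against 3.69 FPKM (2.87 to 4.50) at 0 h, a log2 ratio of 3.20. FTSZ1 and FTSZ2, the ring proteins, had 24.6 and 16.8 FPKM at 12 h, against 2.49 and 1.77 FPKM at 0 h. MINE1 and MINE2 had log2 ratios of 2.25 and 2.29. Histone genes went the other way, with 3 of 7 tested lower and 0 higher, but 51 of the 58 histone genes averaged under 1 FPKM. Their near-identical copies and the selection for poly(A) tails, which replication-dependent histone messages lack in animals, limit what these values say.

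Few flagellar genes were called. Of 193 tested genes for flagella associated proteins, 8 rose and 1 fell, with a median log2 ratio of 0.40. A ratio above 0 was found in 169 of these 193 genes, beside 6286 of the 11458 genes tested. FAP40 had 5.59 FPKM at 12 h against 0.446 FPKM at 0 h, and FAP269 had 82.6 FPKM at 12 h against 20.8 FPKM at 0 h. Of 64 genes for intraflagellar transport, dyneins and radial spokes, 1 rose and 1 fell, and 59 had a ratio above 0. FMG1-A and FMG1-B, membrane glycoproteins of the flagellum, had 60.4 and 20.4 FPKM at 12 h, against 7.07 and 1.85 FPKM at 0 h. TUB2, a beta tubulin, had 147 FPKM at 12 h against 35.8 FPKM at 0 h, while its near-identical copy TUB1 was not called. In the cell wall list, 5 of 25 tested genes rose and 1 fell, led by PHC5, a pherophorin, with 69.5 FPKM at 12 h against 8.21 FPKM at 0 h.

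Gamete genes were examined as markers of the other state these cells can take. Of 8 genes, 3 were tested: GSP1, a homeodomain protein of plus gametes, rose, NSG13 fell and GAS28 was not called. The list summed to 97.8 FPKM at 12 h and 106 FPKM at 0 h, of which NSG13 and GAS28 held most; without them it was 7.62 FPKM at 12 h and 3.91 FPKM at 0 h. FUS1, which marks plus gametes ready to fuse, was listed at 0 in both, a value that says nothing about minus gametes.

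Carbonic anhydrases, many of which carry zinc, split into a few risers and a larger group near their deficient level. Of 11 tested, which include the gamma-type relatives CAG1, CAG2 and CAG3, 3 rose and 0 fell, with a median log2 ratio of 0.26. CAH1, the abundant periplasmic enzyme, had 1017 FPKM (740.0 to 1294) at 12 h, against 286 FPKM (216 to 356) at 0 h, a log2 ratio of 1.83. CAH2, its periplasmic relative, had 31.3 FPKM (26.7 to 36.0) at 12 h, against 1.54 FPKM (1.13 to 1.95) at 0 h, a log2 ratio of 3.67. CAH2 and CAH1 are neighbours on chromosome 4, in a run with Cre04.g222950 from 2630180 to 2666375, in which all 3 genes rose. CAH5, of the mitochondrion, had 85.4 FPKM at 12 h against 26.5 FPKM at 0 h, and its near-identical copy CAH4 had 132 FPKM at 12 h against 76.3 FPKM at 0 h and was not called. CAH3, of the thylakoid lumen, and CAH6 and CAH8 had log2 ratios of 0.34, 0.01 and 0.02. CAH7 had 11.8 FPKM at 12 h against 22.4 FPKM at 0 h, a log2 ratio of -0.87, and was not called.

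The carbon concentrating list, genes named for their response to low CO2, went both ways. Of 28 tested, 5 rose and 6 fell, with a median log2 ratio of -0.19. LCI1, an inorganic carbon channel of the plasma membrane, had 97.6 FPKM (76.0 to 119) at 12 h, against 2.59 FPKM (1.83 to 3.35) at 0 h, a log2 ratio of 4.78. LCIB and LCIC, which form a complex near the pyrenoid, had 665 and 319 FPKM at 12 h, against 218 and 122 FPKM at 0 h. LCI5, the Rubisco linker of the pyrenoid, had 669 FPKM at 12 h against 265 FPKM at 0 h. The remaining riser was LCI26, with a log2 ratio of 2.69. On the other side, CCP2, of the mitochondrial carrier family, had 11.9 FPKM (9.95 to 13.8) at 12 h, against 54.4 FPKM (42.7 to 66.2) at 0 h, while CCP1, its near-identical copy, had 36.6 FPKM at 12 h and 30.0 FPKM at 0 h. LCI33, LCI23, LCI31, LCI9 and LCI30 also fell, with log2 ratios between -3.06 and -1.68. LCI3, the most abundant member, was not called, at 7593 FPKM at 12 h against 11401 FPKM at 0 h, and overlaps another gene's span.

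Some of these carbon genes differed between 12 h and 24 h, while CAH2, LCIC, LCI26 and LCI5 were not called between these times. Of 11464 genes tested between 12 h and 24 h, 52 were higher at 12 h (0.454%) and 24 lower (0.209%), together 0.663%. Among those higher at 12 h were 7 of the 28 carbon concentrating genes and 3 of the 11 carbonic anhydrases. CAH1 had 1017 FPKM at 12 h against 11.3 FPKM at 24 h, a log2 ratio of 6.37, and LCI1 had 97.6 FPKM at 12 h against 0.336 FPKM at 24 h, a log2 ratio of 6.21. In the replete cultures, CAH1 had 548 FPKM in the early and 8.10 FPKM in the late one, whereas LCIB, at 665 FPKM at 12 h against 313 FPKM at 24 h, had 438 and 449 FPKM there. NAR1.2, a chloroplast bicarbonate channel, had 32.0 FPKM at 12 h against 1.53 FPKM at 24 h, although its log2 ratio of -0.60 at 12 h over 0 h was not called. Cell density and CO2 were not given per sample in the labels, and their part in these values was not tested.

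**Figure D4:**
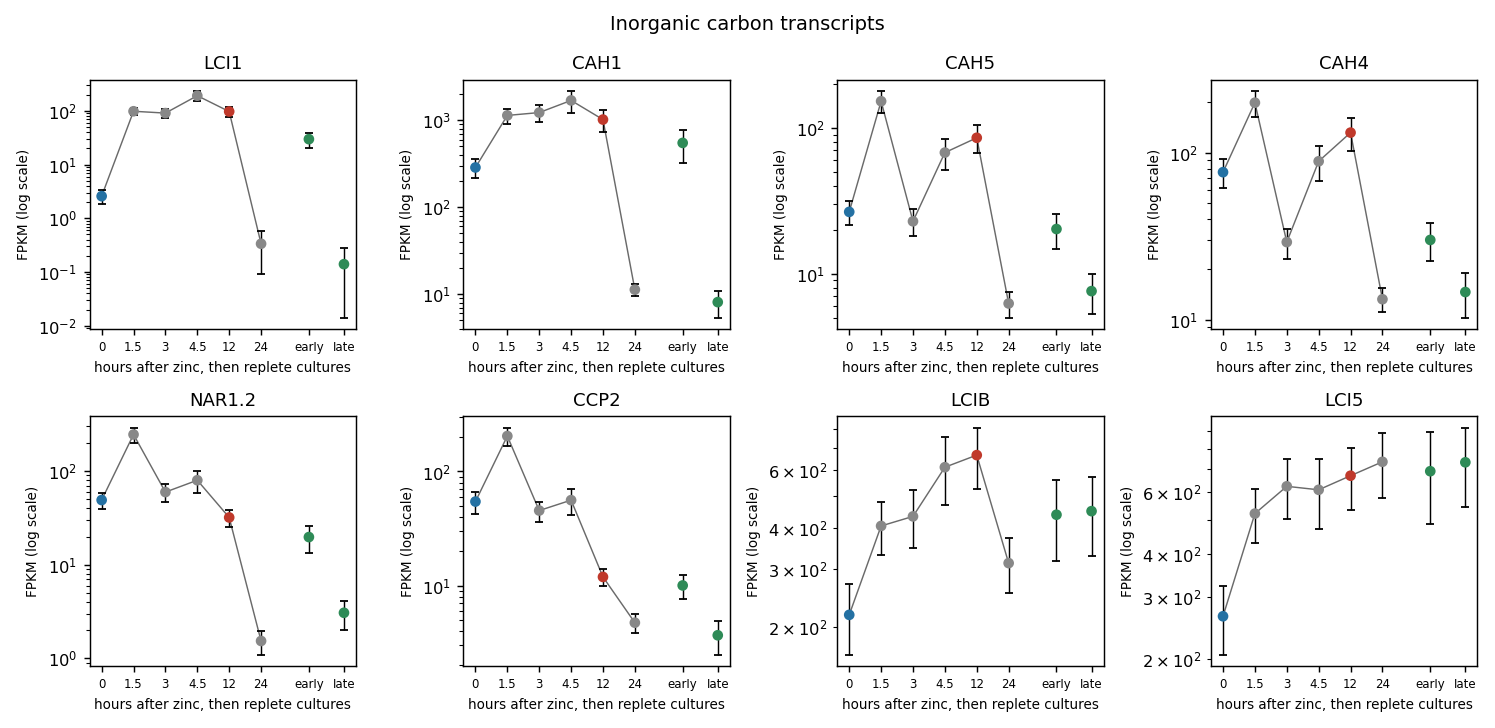
FPKM on log scales, which differ between panels, of 8 inorganic carbon transcripts at 0 h (blue), at 12 h (red) and at the other times (grey), with times evenly spaced, and in the zinc-replete early and late cultures (green); bars are the deposited bounds. CAH1 and LCI1 are high from 1.5 h through 12 h and low at 24 h and in the late replete culture, CCP2 and NAR1.2 peak at 1.5 h, and LCI5 stays at its raised level.

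Against 4.5 h, 200 of 11470 genes were higher at 12 h (1.74%) and 146 lower (1.27%), together 3.02%. LHCBM4 was among the higher, at 1763 FPKM at 12 h against 351 FPKM at 4.5 h, as were PSAG and PSBX. Flagella associated proteins had 9 higher and 2 lower of 193, and cell wall genes 8 higher and 1 lower of 25. HYDA1 was higher at 12 h as well, at 60.3 FPKM against 9.53 FPKM at 4.5 h, and so lay between its levels at 4.5 h and 0 h. Histone genes were lower, 6 of 7, and so were SLT1 and SLT2, at 3.64 and 13.9 FPKM at 12 h against 26.4 and 57.5 FPKM at 4.5 h. The plastid ribosomal genes had 0 called and a median log2 ratio of -0.85 at 12 h over 4.5 h. PRPL7 shows the course: 615 FPKM at 0 h, 1902 FPKM at 1.5 h, 2596 FPKM at 3 h, 2689 FPKM at 4.5 h, 1467 FPKM at 12 h and 1798 FPKM at 24 h.

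At 12 h few genes differed from the replete cultures. Of 11465 genes tested, 41 were higher (0.358%) and 52 lower (0.454%) at 12 h than in the early replete culture, together 0.811%. Against the late replete culture, 107 of 11469 were higher at 12 h (0.933%) and 89 lower (0.776%), together 1.71%. These comparisons share the 12 h value with the one against 0 h. Over all 11445 genes with usable values, 3078 lay below both replete cultures at 12 h, 5235 between them and 3132 above both. At 0 h, 5325 lay below both, 1876 between them and 4244 above both. All 32 plastid ribosomal genes lay between the replete cultures at 12 h, and all 32 lay below both at 0 h. Of the 51 cytosolic ribosomal genes, 30 lay below both replete cultures at 12 h and 9 at 0 h. Of the 50 cell cycle genes, 23 lay below both replete cultures at 12 h and 40 at 0 h.

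**Figure D5:**
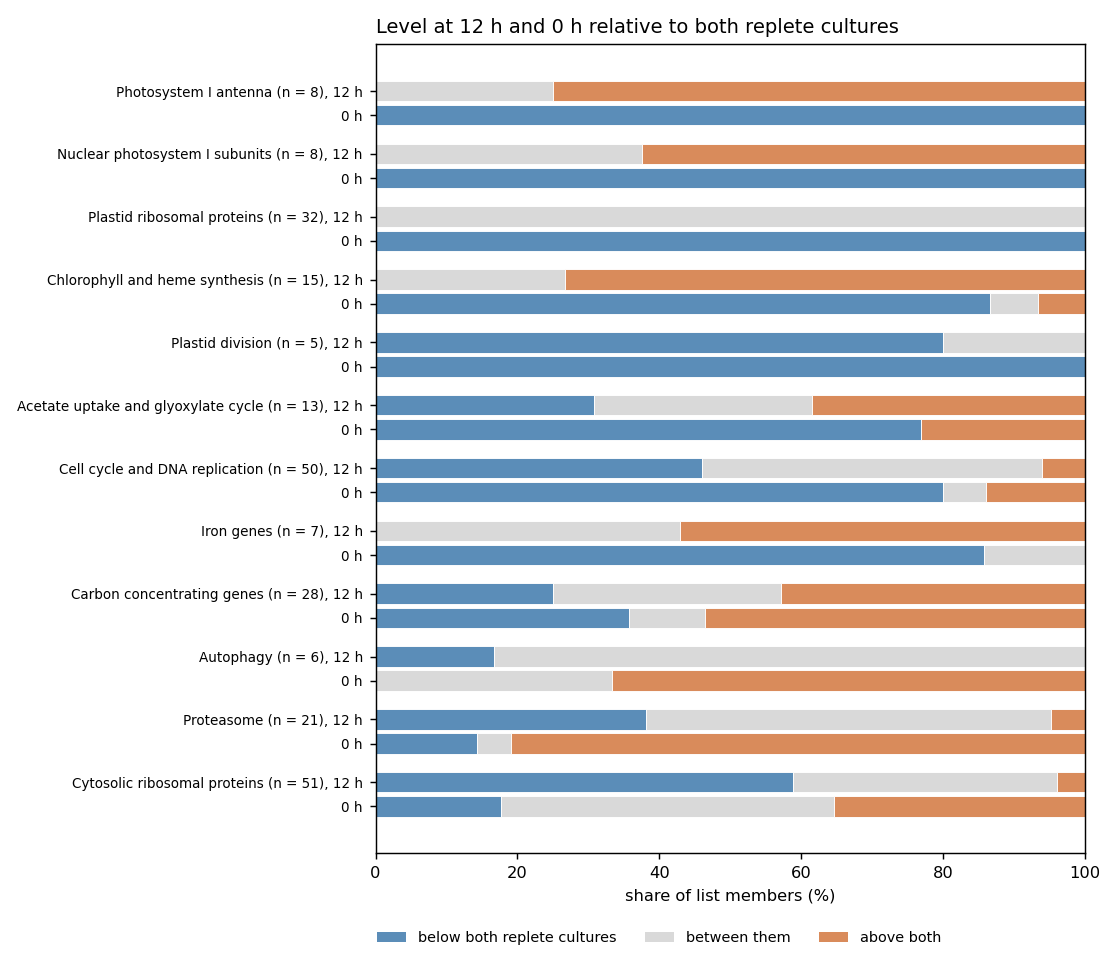
Share of tested members (%) of 12 gene lists whose FPKM lay below both zinc-replete cultures (blue), between them (grey) or above both (orange), at 12 h (upper bar of each pair) and at 0 h (lower bar). No minimum difference is needed to count as above or below; all 32 plastid ribosomal genes are between at 12 h and below both at 0 h, while most iron genes lie above both at 12 h.

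Some genes lay apart from the replete cultures at 12 h. Of the 7 iron genes, 4 lay above both replete cultures and 3 between them, with 4 called higher than in the early and 1 called higher than in the late culture. FEA2 had 365 FPKM at 12 h, against 57.2 FPKM in the early and 85.4 FPKM in the late replete culture, while its 73.5 FPKM at 0 h lay between both. SUL2 had 39.4 FPKM at 12 h, against 9.52 FPKM in the early and 5.50 FPKM in the late replete culture. AOT4 had 19.3 FPKM at 12 h, against 2.95 FPKM in the early and 1.65 FPKM in the late replete culture. PHC18, a pherophorin, lay far below, with 0.538 FPKM at 12 h, against 402 FPKM in the early and 231 FPKM in the late replete culture, and it had 0.0292 FPKM at 0 h. TRP5 and SRR2 had 0.108 and 0.0512 FPKM at 12 h, against 14.4 and 11.3 FPKM in the early and 14.5 and 10.6 FPKM in the late replete culture. LHCSR1 had 1.29 FPKM at 12 h, against 20.9 FPKM in the early and 10.8 FPKM in the late replete culture. FMG1-A and FMG1-B lay on opposite sides: FMG1-A had 60.4 FPKM at 12 h, against 0.401 FPKM in the early and 0.614 FPKM in the late replete culture, and FMG1-B had 20.4 FPKM at 12 h, against 68.1 FPKM in the early and 79.5 FPKM in the late replete culture. SUL2, AOT4, PHC18, TRP5, SRR2 and LHCSR1 were named after their values had been seen.

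Other lists had few calls. Of 27 genes of plastid translation factors and protein import, 6 rose and 1 fell; TOC75 and TOC34, parts of the import machinery of the outer envelope, had log2 ratios of 1.40 and 1.33. CMK1, an enzyme of isoprenoid synthesis in the plastid, had 29.1 FPKM at 12 h against 5.68 FPKM at 0 h, and 2 of 10 genes of its list rose. CAT1, a catalase, had 206 FPKM (169.6 to 243) at 12 h, against 55.8 FPKM (45.1 to 66.6) at 0 h. Of 12 phosphate genes, 2 rose and 1 fell; PTB12, a phosphate transporter, had 1.10 FPKM at 12 h against 14.5 FPKM at 0 h, while PTA3 and PTB3 had log2 ratios of 1.65 and 1.38. Of 12 genes of nitrogen uptake and assimilation, NAR1.5 rose to 21.4 FPKM at 12 h, against 4.64 FPKM at 0 h, and NAR1.4 and the glutamate dehydrogenase GDH1 fell. In vesicle transport 1 of 67 genes rose and 2 fell, and of 21 translation factors 0 were called.

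Some transcripts went between very low and clear expression. Of the genes called higher, 31 were under 1 FPKM at 0 h and at least 5 FPKM at 12 h, and the 9 with a symbol were CDC20, FAP40, FRE1, MCM2, MCM3, MCM4, MINE2, PRL10 and SRR26. Of the genes called lower, 34 were under 1 FPKM at 12 h and at least 5 FPKM at 0 h, and the 7 with a symbol were CDO2, CGL41, CYC6, DNJ15, SELW2, ZRT1 and ZRT3. The highest ratios without a symbol were those of Cre13.g603550, with 129 FPKM at 12 h against 1.86 FPKM at 0 h, and g6609, with 240.4 FPKM at 12 h against 4.70 FPKM at 0 h. Among the 12 highest genes with a symbol not yet given were RBD2, FBP2 and IPY3, with log2 ratios of 3.50, 3.40 and 3.27.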

How the data were processed

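RNA of Chlamydomonas reinhardtii was selected for messenger RNA and sequenced from a stranded kit, per the labels' protocols. The authors deposited FPKM values with bounds and a status for 17737 genes in 8 conditions. The submitters' processing notes name TopHat2 and Cuffdiff without versions. For the genome build, the annotation, the confidence level of the bounds and the handling of replicates, nothing is stated in these sources. The table holds 1 value per gene and condition, so no test between conditions was run. Column names matched each of the 8 conditions, with 0 columns left over.

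At 12 h or 0 h, 54 genes had a status other than OK and were left out. Calls needed a log2 ratio of at least 1 in size (pseudocount 1 FPKM), bounds that did not overlap and a mean of at least 1 FPKM over the 8 conditions. Depth could not be recovered: of 769 genes with low values, at most 1.17% shared 1 ratio between conditions. Tables were handled with Python 3.11.15 and pandas 2.3.3, and the call rule was checked on simulated data. The changes in that check were well past the call threshold, in genes well above the level filter, so calls near either limit were not checked. Symbols are those of the table, which names 2406 of the 11458 genes tested. The start and end of 157 tested genes are the same as those of another gene, and partial overlaps are not in this count.

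The comparison and the 51 gene lists, matched by symbol pattern, were chosen with earlier results of these data known, and 1 list (COG0523 GTPases) matched no symbol. Named genes are, among called genes with a symbol, the 12 highest and 12 lowest, up to 3 called members per list and direction, members of the zinc, copper, iron and carbon lists, and up to 2 unnamed genes per direction. LHCBM1, LHCBM2, LHCBM7, RPS27e1, TUB1, GAS28, the genes switching between under 1 and at least 5 FPKM, further called list members, and those marked in the text were chosen after their values had been seen. Patterns also caught unrelated genes, such as MOT genes of motile cilia among the metal transporters, whose list is not described. Alternatives were other pseudocounts, filters, fold thresholds, scalings and calls without bounds.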

Additional observations from a re-analysis of the deposited data

How the results depend on the processing

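Against 831 higher and 723 lower genes, a pseudocount of 5 FPKM gave 410 higher and 387 lower, and a ratio threshold of 4 gave 137 higher and 160 lower. A mean of at least 5 FPKM gave 457 lower and 597 higher. Under the other settings both counts stayed within 1.5 times: 1174 higher and 987 lower with a pseudocount of 0.1 FPKM, 840 and 776 with no filter, 831 and 726 with bounds not used, 757 and 806 with median-of-ratios factors, and 780 and 820 after scaling to the same total. The share of higher genes among those called was 53.5% and ranged from 46.1% to 56.6%. The median over all genes lay between 0.01 and 0.08.

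No listed gene changed sign while called under any of the 8 alternatives. Of 236 listed called genes, 9 lost the call with median-of-ratios factors (RBCS1, PSAL, TIC20, CYCAB1, PRPL21, GPD1, PSAN, FAP126 and PRPS13), 7 after scaling to the same total, 53 with a pseudocount of 5 FPKM, 30 with a mean of at least 5 FPKM and 155 at a ratio of 4. The list medians whose sign changed were those of the cation diffusion facilitators (-1.22 with a mean of at least 5 FPKM), the gamete genes (-1.39 there, -0.13 with no filter), the histones (0.03 with no filter) and the plastid proteases, which stayed within 0.12 of 0. The causes were not tested beyond the change in which genes pass.

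No paired analysis was possible because the table holds 1 value per gene and condition, with no replicate numbers; leaving out a replicate was not possible for the same reason. Whether the deposited bounds hold the variation between cultures is not known, and precision of low genes is limited by a depth that is unknown.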
